A study of Xenopus tropicalis with 18 samples.

Results

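The genes described here were those whose RNA was highest at stage 65 in both the coccyx and the hypochord of Xenopus tropicalis tadpoles. The urostyle is the bony rod at the end of the frog's vertebral column. It is built from a coccyx on the dorsal side and a hypochord on the ventral side, which join at metamorphosis, and the study measured RNA in both while it develops. Stage 65 lies near the end of metamorphic climax, the period driven by thyroid hormone in which the tail is resorbed and the body of the frog takes shape. In this period larval tissues are broken down while cartilage of the urostyle is remodelled and ossifies.

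All 18 libraries came from wild-type tadpoles, and laser capture on frozen sections was used to take each tissue. The 12 libraries used for the genes were replicates 1 and 2, which held coccyx and hypochord at stage 56 (replicate 1), stage 58 (replicate 2), stage 61 (replicates 1 and 2) and stage 65 (replicates 1 and 2). Another 6 libraries, replicate 3 of stages 56, 61 and 65, list genes under identifiers that could not be joined to the others and were used only for shares of rows. The labels give neither the number of animals behind a library nor whether replicates are different animals. The p-values below therefore reflect only how far these libraries differ, and part of that may be technical. In the tests stages 56 and 58 form 1 group per tissue, with 1 library of each stage. Any change between these stages thus counts as spread between replicates, so few calls are not evidence of no change. The files pair no identifier with a gene name, and 0 identifiers were found in the RefSeq gene table used here. The tissue labels could therefore not be checked against marker genes, no role can be given to any gene, and no sequence is shown. Genes are called by their rank, with 4 identifiers.

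Of 19921 genes listed, 19784 were left after the last 37 rows of the tables and the 100 most abundant rows were set aside. Of these, 5510 had a count in every one of the 12 libraries and 5119 also had a mean of at least 8 CPM (a gene's count scaled to the total count of its library). In coccyx both stage 65 libraries lay above all 4 libraries of stages 56, 58 and 61 for 645 of the 5119 genes (12.6%). In hypochord this held for 680 genes (13.3%), and in both tissues for 165 (3.22%). The 165 genes were 25.6% of the coccyx list and 24.3% of the hypochord list. For 51 of the 165 the CPM ranges of coccyx and hypochord also overlapped at stage 61 and at stage 65, and these are the genes of this account. They were ranked by the smaller of both tissues' differences in mean log2(CPM + 1), stage 65 minus the earlier stages. Since these values chose the genes, the stage 65 excess is given as a description, without a test.

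The scale of the counts bears on how many genes stand out at stage 65. Over the 5119 genes the median difference of stage 65 minus earlier stages was 0.37 in coccyx and 0.48 in hypochord on the CPM scale. With TMM factors, which scale libraries by the bulk of their genes, it was 0.07 in coccyx and 0.06 in hypochord. Of the 5119 genes, 165 (3.22%) lay above in both tissues on the CPM scale. There were 56 (1.09%) with TMM factors and 67 (1.31%) with DESeq2's size factors. The 51 genes were chosen on the CPM scale, so their counts are not to be set against these shares. On the TMM scale 23 of the 51 genes lay above in both tissues, a description of the values that chose them. Of the other 28 genes on that scale, 13 overlapped with the earlier stages in coccyx only, 6 in hypochord only and 9 in both. With DESeq2's size factors 24 of the 51 lay above in both tissues, and 21 did so under both scalings.

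The stage 65 difference of the 51 genes was modest in coccyx and wider in hypochord. In coccyx the mean log2(CPM + 1) of stage 65 was above that of the earlier stages by 0.45 to 2.47, with a median of 0.99. In hypochord the difference ran from 0.86 to 4.96, with a median of 1.93. On the TMM scale the medians of the 51 genes were 0.69 in coccyx and 1.495 in hypochord. The smaller difference was that of coccyx in 46 genes and that of hypochord in 5. As a ratio of mean CPM, stage 65 over the earlier stages, the genes ran from 1.35 to 5.51 in coccyx (median 1.88) and from 1.64 to 12.6 in hypochord (median 3.13).

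**Figure D1:**
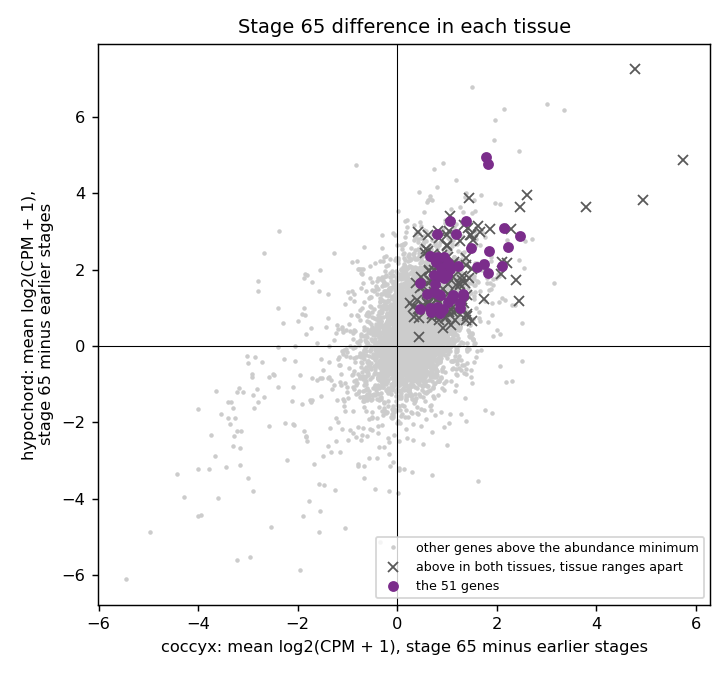
Difference in mean log2(CPM + 1), stage 65 minus stages 56, 58 and 61, in coccyx (x axis) and hypochord (y axis) for 5119 genes. The 51 genes (filled circles) lie at 0.45 to 2.47 in coccyx and 0.86 to 4.96 in hypochord, and the 114 crosses are genes above in both tissues whose tissue ranges were apart at stage 61 or 65.

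Most genes cleared the earlier stages by a narrow margin. The lower stage 65 library stood above the highest earlier one by a median ratio of 1.16 in coccyx and 1.25 in hypochord. The margin reached 2 in 2 genes in coccyx and in 5 genes in hypochord, and in 0 genes in both. It was under 1.1 in 11 genes in coccyx and in 12 in hypochord. Taking the smaller of the margins in both tissues, the genes nearest the limit had ratios of 1.01, 1.01 and 1.02. Of the 2194 genes with the same abundance and overlapping tissue ranges, those nearest below the limit had ratios of 0.998, 0.995 and 0.993, and 52 non-members had a ratio of 0.9 or more. The lowest-ranked of the 51 had a difference of 0.45 in coccyx and 1.66 in hypochord.

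The gene ranked 1, ENSXETG00000008640, had 67.5 CPM in coccyx at stage 56, 35.4 at stage 58, 79.3 and 45.9 at stage 61, and 385 and 244 at stage 65. In hypochord it had 102 CPM at stage 56, 0.413 at stage 58, 62.7 and 85.1 at stage 61, and 158 and 300.2 at stage 65. Its coccyx margin, 3.07, was the widest of the 51 genes in that tissue. The mean at stage 65 was 314 ± 99.5 CPM in coccyx and 229 ± 101 CPM in hypochord (SD, n = 2 each). The 0.413 CPM of stage 58 hypochord was 3 counts, while the other hypochord libraries before stage 65 had 62.7 to 102 CPM.

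The gene ranked 2, ENSXETG00000000396, was less abundant. In coccyx it had 8.59 CPM at stage 56, 2.26 at stage 58, 16.1 and 4.71 at stage 61, and 50.3 and 22.4 at stage 65. In hypochord it had 13.1 CPM at stage 56, 0.55 at stage 58, 18.0 and 5.35 at stage 61, and 79.9 and 22.4 at stage 65. The stage 65 replicates differed widely in both tissues, with means of 36.4 ± 19.7 CPM in coccyx and 51.1 ± 40.6 CPM in hypochord (SD, n = 2 each). Replicate 1 was the higher in each. The gene was not above in both tissues on the TMM scale, but it was with DESeq2's size factors.

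**Figure D2:**
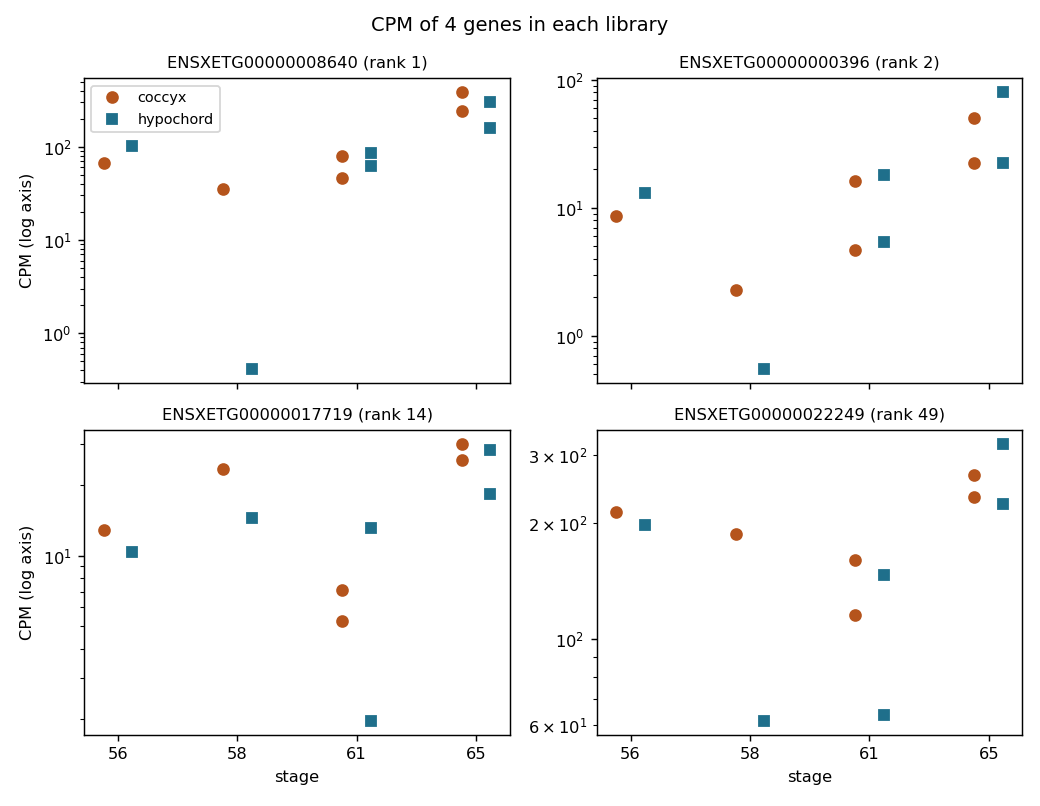
CPM (log axis) of 4 of the 51 genes in each of 12 libraries by stage, with coccyx as circles and hypochord as squares. The 2 genes of the upper row have their lowest value in stage 58 hypochord (0.413 and 0.55 CPM), and the 2 of the lower row, ENSXETG00000017719 and ENSXETG00000022249, have the lowest log2 fold changes of stage 61 over stages 56 and 58.

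Further genes of high rank differed in level. Rank 3 had 73.9 and 176 CPM at stage 65 in coccyx, against 11.2 to 49.6 CPM before, and 56.5 and 103 CPM at stage 65 in hypochord, against 0.138 to 38.9 CPM before. Rank 5 had 323 and 213 CPM at stage 65 in coccyx, against 32.9 to 154 CPM before, and 287 and 402 CPM at stage 65 in hypochord, against 19.8 to 116 CPM before. Rank 7 was close in level between the tissues, with 256 and 393 CPM in coccyx and 353 and 440 CPM in hypochord at stage 65. Its earlier values were 58.4 to 115 CPM in coccyx and 43.5 to 190 CPM in hypochord.

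The most abundant of the 51 genes, that of rank 8, held the widest hypochord difference, 4.96. It had 1668 and 3000.3 CPM in stage 65 hypochord, against 55.2, 21.9, 1045 and 18.7 CPM in the stage 56, stage 58 and 2 stage 61 libraries. In coccyx it had 1949 and 1672 CPM at stage 65, against 1481, 597, 593 and 142 CPM before. The stage 61 replicates thus stood far apart in hypochord, and the stage 56 coccyx library came close to stage 65.

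Most of the 51 genes were of moderate abundance. Their mean CPM over the 12 libraries ran from 8.58 to 1020, with a median of 49.1, against a median of 40.0 over the 5119 genes. A mean of 8 to 20 CPM was held by 11 genes, 20 to 50 by 15, 50 to 200 by 20 and above 200 by 5. No identifiers of the 51 followed each other, the smallest gap between them being 5.

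**Figure D3:**
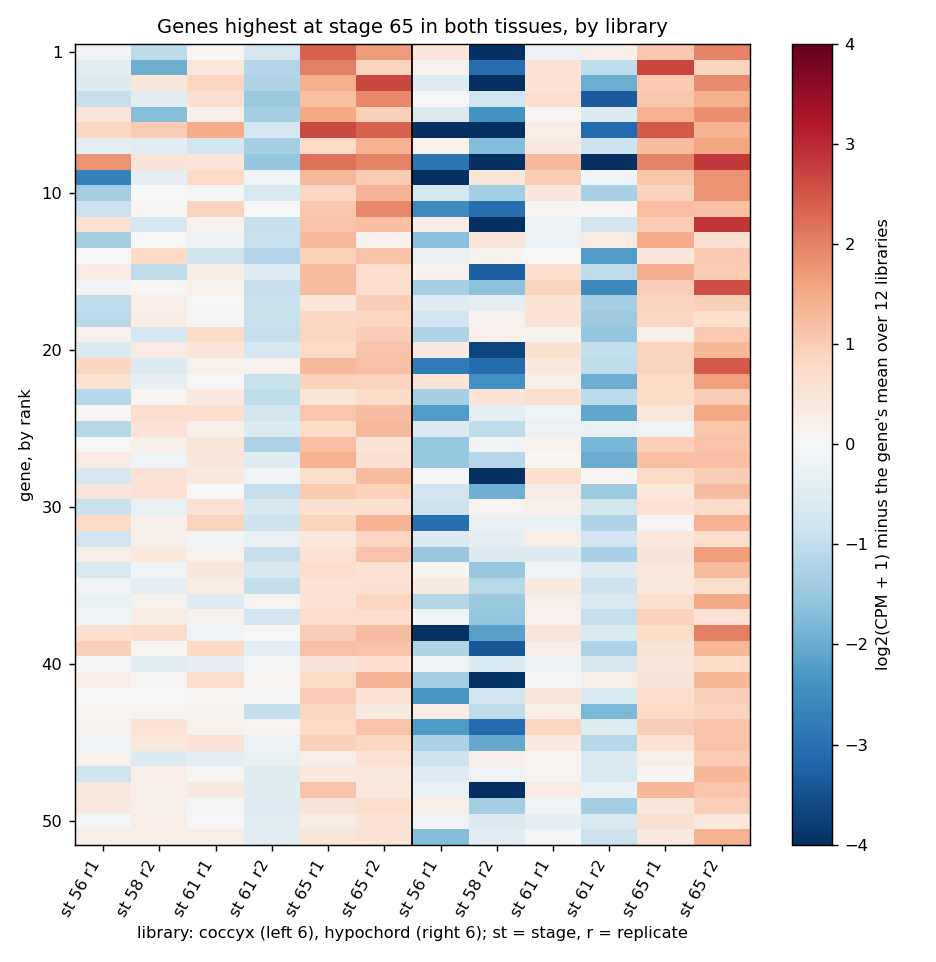
Log2(CPM + 1) of the 51 genes, minus each gene's mean over 12 libraries, with genes by rank down the page and libraries by tissue, stage and replicate across. By the rule, the stage 65 columns are the highest of each tissue in every row, and many of the lowest values stand in the stage 56 and stage 58 hypochord columns and in replicate 2 of stage 61.

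The rule fixes that the sum over the 51 genes is higher at stage 65 than in any earlier library of the same tissue on the CPM scale, and the values are given as a description. In coccyx the sum was 4167 CPM at stage 56, 3914 at stage 58, 4214 and 2105 at stage 61, and 8313 and 7743 at stage 65. In hypochord it was 2214 CPM at stage 56, 2175 at stage 58, 4863 and 1867 at stage 61, and 7768 and 10757 at stage 65. The gene of rank 8 alone made up 1.004% (replicate 2 of stage 61 hypochord) to 35.5% (stage 56 coccyx) of a library's sum. The sums come to between 0.187% and 1.08% of a library's counts. In bulk samples such as these, fewer cells of a type and less RNA per cell cannot be told apart. On the TMM scale the stage 65 sums were 6933 and 5577 in coccyx, against 2874 to 4037 before, and 8439 and 8270 in hypochord, against 2324 to 4810 before.

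**Figure D4:**
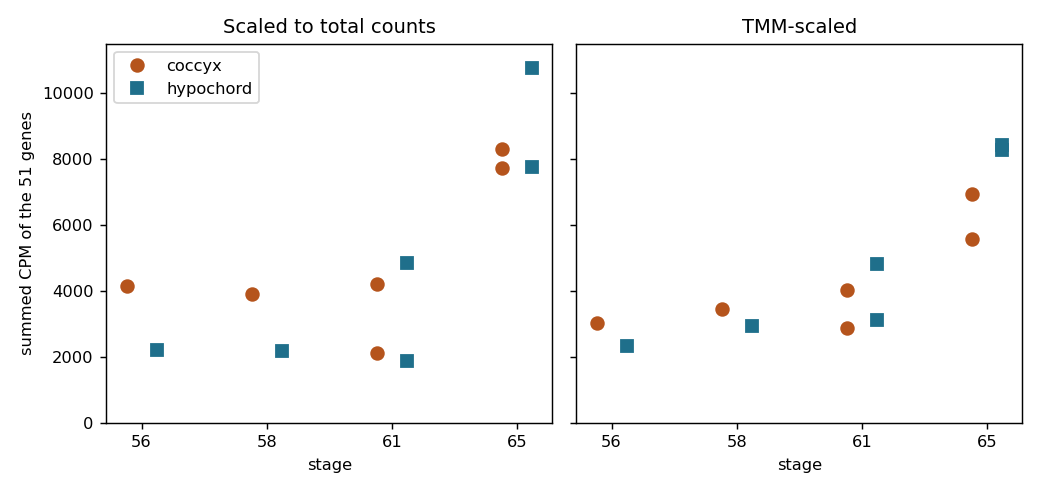
Summed CPM of the 51 genes in each of 12 libraries by stage, scaled to total counts (left) and with TMM factors (right), coccyx as circles and hypochord as squares. Stage 65 lies above the earlier stages on both scales, and on the left replicate 2 of stage 61 is the lowest point of each tissue (2105 CPM in coccyx and 1867 CPM in hypochord).

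Among the earlier stages, single libraries were often the highest or the lowest. The rule used these values, since stage 65 caps them and the tissues had to overlap at stage 61. The shares of the 51 beside those of the 5119 genes are therefore descriptions, fixed in part by the rule. Replicate 2 of stage 61 was below replicate 1 in 46 of the 51 genes in coccyx and in 48 in hypochord, against 75.0% and 79.9% of the 5119 genes. In these libraries the 10 most abundant genes took 31.5% of the counts in coccyx and 33.7% in hypochord, against 11.7% to 26.4% in the other 10. The TMM factors of replicate 2 of stage 61 were 0.732 in coccyx and 0.596 in hypochord. The stage 58 hypochord library, that with 26.4%, had a similar factor of 0.738. In the libraries left, factors ran from 0.920 to 1.39. The part of this in the results was not tested. The highest library before stage 65 was replicate 1 of stage 61 in 23 of the 51 genes in coccyx and in 38 in hypochord, against 22.9% and 32.0% of the 5119 genes. In coccyx the stage 56 library was the highest before stage 65 in 11 of the 51 genes, against 42.2% of the 5119 genes. In hypochord this held for 8, against 35.5%. The stage 58 hypochord library was the lowest before stage 65 in 25 genes, against 33.6% of the 5119. Counts of 3 or fewer occurred in 5 genes in stage 56 hypochord, in 9 in stage 58 hypochord and in 1 in replicate 2 of stage 61 hypochord, and in 0 genes in each of the other 9 libraries. The stage 56 and stage 58 hypochord libraries also had counts for the fewest genes, 7376 and 7508, against 11003 to 13919 in the other 10.

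At stage 65 the replicates of the 51 genes were closer in coccyx than in hypochord by median ratio. The rule used these libraries, so the ratios are descriptions. The higher replicate exceeded the lower by a median ratio of 1.27 in coccyx (highest 2.38) and 1.62 in hypochord (highest 3.66). Replicate 1 was the higher in 22 genes in coccyx and in 10 in hypochord, against 36.3% and 30.5% of the 5119 genes. Between tissues, the mean at stage 65 was higher in coccyx in 18 of the 51 genes, with a median log2 ratio of coccyx to hypochord of -0.15. At stage 61 it was higher in coccyx in 26, with a median log2 ratio of 0.04. The rule asked for overlap of the tissues at these stages, so no test is given. Of the 114 genes above in both tissues that failed this condition, coccyx lay above hypochord at stage 65 in 38 and hypochord above coccyx in 59.

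The first comparison, which the rule fixes only in part, asked whether the genes already differed between stage 61 and stages 56 and 58. Its libraries carry the cap that stage 65 sets on the CPM scale. On the TMM scale used for the test this cap differs between libraries, so medians over the 51 genes are descriptions. The rule also asked for tissue overlap at stage 61, which was not asked of the 5119 or of all 11729 genes. A gene lower in hypochord at stages 56 and 58 than in coccyx at stage 61 thus had to rise in hypochord. Counts of the 51 beside the shares of other genes are therefore descriptions, fixed in part by the rule. In coccyx 0 of the 51 genes passed edgeR's quasi-likelihood test at an adjusted p under 0.05 in either direction, with 0 of 11729 genes called (0%). At an unadjusted p under 0.05 there were 0 of the 51 genes and 142 of all genes, while DESeq2 called 2 genes and limma voom 0, none of them among the 51. The median log2 fold change of the 51 was 0.26 (lowest -1.24, highest 1.83), with 37 above 0, against a median of -0.10 and 43.8% above 0 over the 5119 genes and of -0.12 and 43.5% above 0 over all 11729. On the CPM scale the median was -0.09, against -0.38 over the 5119. Without the stage 56 coccyx library the fitted median of the 51 was -0.10, against -0.0015 over all genes tested. Without replicate 1 of stage 61 coccyx it was -0.03, against -0.23 over all genes tested. By rank of values alone, both stage 61 coccyx libraries lay above stages 56 and 58 in 1 of the 51 genes (3.5% of the 5119) and below them in 8 (23.9%).

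In hypochord 4 of the 51 genes rose at stage 61 and 0 fell, against 13.9% of all 11729 genes called higher and 0.495% called lower by edgeR's quasi-likelihood test. Among the 5119 genes that share the filters of the rule, 3.11% were called higher and 0.899% lower. The genes called were those of rank 6, 11, 21 and 44, chosen by this result. On the CPM scale both stage 61 coccyx libraries of each gene lay above its stage 56 and stage 58 hypochord libraries. The overlap asked at stage 61 therefore fixed part of these rises. At an unadjusted p under 0.05 there were 8 of the 51 higher and 0 lower, with 3388 of all 11729 genes in either direction. The median log2 fold change was 0.53 (lowest -0.88, highest 5.36), with 42 above 0, against -0.18 and 44.3% above 0 over the 5119 genes and 0.43 and 58.1% above 0 over all 11729. On the CPM scale the median was 0.62, against 0.04 over the 5119. Both stage 61 hypochord libraries lay above stages 56 and 58 in 13 of the 51 genes (13.9% of the 5119) and below them in 0 (17.9%).

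The 4 genes called had few counts in early hypochord. The gene of rank 6 had 30.0 and 1.96 CPM in stage 61 hypochord, against 0.185 and 0.413 CPM in the stage 56 and stage 58 libraries. Its pooled counts, 159 at stage 61 and 4 at stages 56 and 58, gave a ratio of 47.8 by total counts (95% exact counting interval 18.3 to 178), and in edgeR's fit the log2 fold change came to 5.36 with an SE of 1.25 (adjusted p = 0.021). Rank 11 had 8.50 and 8.39 CPM at stage 61, against 0.554 and 0.138 CPM before, a ratio of 26.8 (10.1 to 100.4). Its replicates at stage 61 were nearly equal, unlike those of rank 6. Rank 21 had 11.9 and 3.75 CPM at stage 61, against 0.369 and 0.138 CPM before, a ratio of 32.1 (10.6 to 159). Rank 44 had 19.2 and 6.96 CPM at stage 61, against 1.29 and 0.275 CPM before, a ratio of 17.9 (9.16 to 40.0). Counts are of reads pooled over libraries, without molecular identifiers. These intervals treat each read as separate and leave out the spread between libraries, so they may be too narrow even for counting error.

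The number of hypochord calls followed the libraries in the fit. With the stage 65 libraries left out, edgeR called 0 of the 51 genes and 0 of all genes, with 7 of the 51 and 2665 of all at an unadjusted p under 0.05. Without the stage 56 hypochord library 15 of the 51 were called, with 3474 of 12583 genes in all, and without the stage 58 hypochord library 8, with 2875 of 12630. Without replicate 1 of stage 61 hypochord 1 of the 51 was called, with 958 of 12604 genes in all. Leaving out either stage 65 coccyx library also gave 1 of the 51, with 746 genes in all without replicate 1 and 762 without replicate 2.

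**Figure D5:**
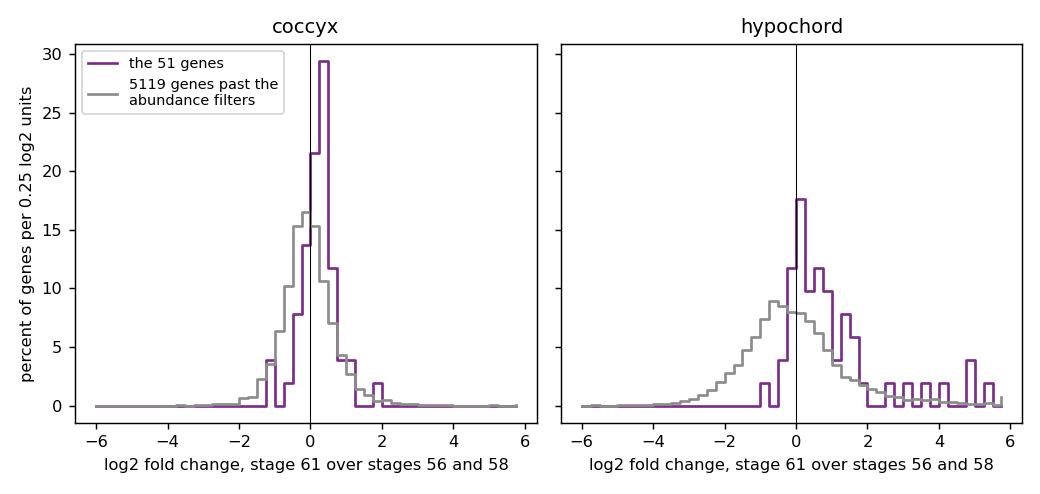
Distribution of edgeR log2 fold changes of stage 61 over stages 56 and 58, in percent of genes per 0.25 log2 units, for the 51 genes and for the 5119 genes past the abundance filters, coccyx left and hypochord right. In coccyx the 51 genes lie between -1.24 and 1.83, and in hypochord they lie between -0.88 and 5.36.

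Averaged over both tissues, 1 of the 51 genes rose at stage 61 (rank 11, edgeR log2 fold change 2.99 ± 0.73, SE, adjusted p = 0.0464) and 0 fell, against 4.41% of all genes called higher and 0.111% called lower. Among the 5119 genes 0.82% were called higher and 0.156% lower. This test took the libraries of coccyx and hypochord as independent. Same-numbered libraries correlated between tissues with r = 0.30 at stages 56 and 58 and 0.35 at stage 61. If they are pairs, the SE and p-value of rank 11 may be too small. Leaving out any single library other than those of stage 56 and stage 58 hypochord lost this call. The calls of all other genes were lost in those fits too. The replicate block gave 0 of the 51 and 0 of all genes. In the fit without the stage 56 hypochord library 13 of the 51 genes were called, with 2615 of 12583 genes in all, and without that of stage 58, 7, with 2125 of 12630. The genes of rank 1 and 2 did not pass, with log2 fold changes of 0.78 ± 0.94 (SE, adjusted p = 0.714) and 1.06 ± 0.92 (SE, adjusted p = 0.571) by edgeR. Without the stage 56 hypochord library they were 4.12 (adjusted p = 0.00448) and 2.77 (adjusted p = 0.0376) by the same edgeR test. Without the stage 58 hypochord library, in which they had 3 and 4 counts, they were 0.32 (adjusted p = 0.676) and 0.63 (adjusted p = 0.56) by edgeR. The lowest log2 fold change of the 51 was that of ENSXETG00000017719 (rank 14), -1.05 ± 0.66 (SE, adjusted p = 0.389 by edgeR). It had 7.14 and 5.27 CPM in stage 61 coccyx, against 12.9 and 23.3 CPM in stages 56 and 58. In hypochord it had 13.2 and 1.96 CPM at stage 61, against 10.3 and 14.4 CPM before. The next lowest, ENSXETG00000022249 (rank 49), had -0.20 ± 0.39 (SE, adjusted p = 0.864 by edgeR). Its levels were 160 and 115 CPM in stage 61 coccyx, against 214 and 187 CPM before, and 147 and 63.7 CPM in stage 61 hypochord, against 198 and 61.5 CPM before.

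Whether the change up to stage 61 differed between the tissues was tested as an interaction. By edgeR's quasi-likelihood test 0 of the 51 genes passed, against 0.0171% of all genes with a higher and 4.29% with a lower coccyx change. Among the 5119 genes 0% had a higher and 0.527% a lower coccyx change, and at an unadjusted p under 0.05 there were 6 of the 51, each with the lower coccyx change, with 2469 of all 11729 genes in either direction. DESeq2 called 6 of the 51 genes lower, with 1634 of all genes, and limma voom 0, with 902 of all genes. When libraries of the same stage and number were blocked, edgeR called 0 of all genes. The median difference of coccyx minus hypochord changes was -0.37 over the 51 genes, against 0.13 over the 5119 and -0.65 over all 11729, so the 51 lay between them. Leaving out the stage 56 hypochord library, the median was -0.52 over the 51 genes, against -1.81 over all 12583 tested. Without the stage 58 hypochord library it was -0.51, against -1.66 over all 12630. The rule asked for tissue overlap at stage 61, so the interaction and the early tissue difference are not separate results.

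The rule sets no tissue condition at stages 56 and 58. On the CPM scale it does cap each tissue's values there below those of stage 65. This cap was not asked of the 5119 or of all 11729 genes, so shares beside theirs are descriptions. At stages 56 and 58 some of the 51 genes had higher CPM in coccyx than in hypochord. The hypochord libraries of these stages had counts for the fewest genes, 7376 and 7508. The part of this in the calls was not tested. By edgeR's quasi-likelihood test 6 of the 51 genes were higher in coccyx and 0 were lower, against 23.1% and 0.639% of all 11729 genes. Among the 5119 genes 4.77% were called higher and 1.27% lower. The 6 genes, of rank 6, 8, 11, 21, 38 and 44, include the 4 genes called in hypochord at stage 61, and both comparisons use the same early hypochord libraries. When libraries of the same stage and number were blocked, 1 of the 51 genes was called (rank 6, log2 fold change 6.80 ± 0.86, SE, edgeR adjusted p = 0.0305), against 1.41% of all genes called higher and 0.145% lower. With the stage 65 libraries left out of the unblocked fit, 0 of the 51 genes and 0 of all genes were called, with 6 of the 51 and 3487 of all at an unadjusted p under 0.05.

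The gene of rank 6 had 44.9 and 50.3 CPM in coccyx at stages 56 and 58, against 0.185 and 0.413 CPM in hypochord, a ratio of 152 by pooled counts (95% exact counting interval 59.1 to 561). At stage 65 its levels were 157 and 130 CPM in coccyx and 138 and 66.7 CPM in hypochord. The gene of rank 8 had a ratio of 26.9 at stages 56 and 58 (24.5 to 29.6) and the gene of rank 38 a ratio of 14.5 (9.93 to 22.0). These intervals too leave out the spread between libraries. In edgeR's fit the log2 fold change was 6.73 (SE 1.31) for rank 6. It was 4.36 (SE 1.31) for rank 8 and 3.45 (SE 1.05) for rank 38. Rank 8 had 1481 and 597 CPM in coccyx, against 55.2 and 21.9 CPM in hypochord. Rank 38 had 31.5 and 34.5 CPM in coccyx, against 0.369 and 3.71 CPM in hypochord. In all 6 genes the stage 65 difference, fixed in part by the rule, was smaller in coccyx (0.74 to 1.83) than in hypochord (2.31 to 4.96). The choice of these genes also favours this order. They were called for low hypochord values at stages 56 and 58, and the same libraries lower the earlier mean in the hypochord difference. Of all 51 genes, the smaller difference was that of coccyx in 46 and that of hypochord in 5. The order in the 6 genes is therefore not a separate result.

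Over all 51 genes the early tissue difference was spread widely. The fitted log2 ratio of coccyx to hypochord at stages 56 and 58 ran from -1.18 to 6.73, with a median of 0.31 and 33 genes above 0, against a median of -0.16 and 45.0% above 0 over the 5119 genes and of 0.92 and 64.5% above 0 over all 11729. The 51 thus lay above the genes of the same filters and below all genes tested. On the CPM scale the rule held their values at stages 56 and 58 below those of stage 65 in each tissue. It also asked for tissue overlap at later stages. Neither was asked of the 5119 or of all 11729 genes. The medians and shares of the 51 beside theirs are therefore descriptions, fixed in part by the rule. With stage 56 alone the median over the 51 genes was -0.02, against 2.09 over all genes tested in that fit. With stage 58 alone it was 0.84, against 2.71 over all genes tested. Both coccyx libraries of these stages lay above both hypochord libraries in 22 of the 51 genes (24.3% of the 5119) and below them in 0 (9.94%). Leaving out either early coccyx library or either stage 65 coccyx library gave 2 of the 51 genes, with 1363 to 1687 genes in all. Without replicate 1 of stage 65 hypochord 3 were called, with 2458 of 12638 genes in all, and without the stage 56 hypochord library 14, with 4145 of 12583.

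In the libraries of replicate 3, where the 51 genes cannot be found, rows highest at stage 65 in both tissues were counted with 1 library per stage and tissue. The filters were of the same kind but were applied to the libraries of each replicate alone. Libraries of replicate 3 held 10418992 to 17125833 counts, against 1918822 to 7271829 in those of replicates 1 and 2. The part of this in the shares was not tested. In replicate 3, 1552 of 6715 rows (23.1%) had stage 65 above stages 56 and 61 in both tissues. The same count was 684 of 5809 genes (11.8%) in replicate 1 and 2426 of 5846 (41.5%) in replicate 2, where stage 58 took the place of stage 56. In replicate 3 the rows high in both tissues were 66.4% of the coccyx list and 54.6% of the hypochord list, where 34.8% of all rows were high in coccyx and 42.3% in hypochord. In replicate 1 they were 38.0% of the coccyx list and 46.9% of the hypochord list, where 31.0% of all rows were high in coccyx and 25.1% in hypochord. In replicate 2 they were 65.3% of the coccyx list and 72.8% of the hypochord list, where 63.5% of all rows were high in coccyx and 57.0% in hypochord. Across rows, the stage 65 difference in coccyx and that in hypochord had a Pearson's r of 0.60 in replicate 3, 0.45 in replicate 1 and 0.40 in replicate 2. Rows share their libraries and are not independent replicates. In the stage 61 libraries of replicate 2 the median CPM over the 5119 genes was 24.3 in coccyx and 20.9 in hypochord. It was 30.6 to 48.1 in the other 10 libraries. The stage 65 libraries of replicate 2 had medians of 48.1 in coccyx and 44.3 in hypochord, against 41.9 and 30.6 in replicate 1. The part of these medians in the shares was not tested.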

How the data were processed

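RNA of coccyx and hypochord was counted per gene by the authors, with deposited whole-number counts, not normalized, per the file headers and the values. Tools listed in the submitters' processing notes are cutadapt 1.8.1, FastQC and HTSeq 0.13.5. Which aligner, build and annotation were used is not given in the sources used here. Per the labels' protocols, complementary DNA was amplified by PCR, without molecular identifiers stated. With aligner and annotation not given, counts of overlapping or near-identical genes are uncertain. The 12 libraries of replicates 1 and 2 held 1918822 to 7271829 counts, at which 3 counts are 0.413 to 1.56 CPM, and the 6 of replicate 3 held 10418992 to 17125833.

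Labels of tissue and stage set the groups. CPM used each library's total count. Overlap of the tissues was asked at stage 61 and at stage 65 separately. The genes and tests were chosen with earlier results of these data known. Marker lists were not run, because no identifier has a symbol.

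The test of the counts was that of edgeR 4.0.16 under R 4.3.3 (TMM, filterByExpr, robust quasi-likelihood, Benjamini-Hochberg over 11729 genes, threshold 0.05). The fit had 12 libraries in 6 groups, with stages 56 and 58 as 1 group per tissue, 6 residual degrees of freedom and a biological coefficient of variation of 0.785. All 51 genes passed filterByExpr. Standard errors were approximated by dividing the fold change by the root of its F value. Alternatives used DESeq2 1.42.0, limma 3.58.1, other scalings and filters, and each library left out in turn. Where this left 1 library in a group, its spread was taken from the other groups. The fits and the rule were tested on simulated data. The simulated counts for the fits held no difference between stages 56 and 58 and no effect shared by a replicate. They therefore cannot show how the calls behave where the real libraries hold these.

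Without symbols, the genes named by identifier are the 2 ranked first and the 2 with the lowest log2 fold change of stage 61 over stages 56 and 58, both tissues averaged.

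Between tissues, deviations of same-numbered libraries from group means correlated with r = 0.30 (stages 56 and 58), 0.35 (stage 61) and 0.19 (stage 65) across 11729 genes. The main fit had no block, and an alternative fit treated same-numbered libraries of a stage as pairs. The pairing is assumed, not shown: with 2 replicates an exchange of numbers only turns the sign of r. At stages 56 and 58 the number goes with the stage, so a stage difference shared by the tissues would also give a positive r.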

Additional observations from a re-analysis of the deposited data

How the results depend on the processing

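With TMM factors 13 genes met the rule, 11 of them among the 51, and with DESeq2's size factors 17 did, 12 of them among the 51; the TMM medians of the 5119 genes were 0.07 in coccyx and 0.06 in hypochord. Without the overlap condition 165 genes met it, without the stage 58 libraries 135, and with stages 61 and 65 pooled for the overlap, chosen after seeing the data, 162, each holding all 51. Mean CPM minimums of 4 and 16, no rows dropped and no filter on counts of 0 stayed within 1.5 times (44 to 76 genes). Leaving out each library in turn gave 24 to 95 genes, 12 to 51 of them among the 51; a lone stage 61 or 65 library narrows the range that must overlap. Other pseudocounts (0.5 and 5 CPM) kept all 51, since the limit of 150 genes was not reached.

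The tests moved as follows, giving the genes of the 51 called and, after "of", all genes called. DESeq2's Wald test gave 0 of 2 at stage 61 in coccyx, 8 of 2923 in hypochord, 5 of 2022 for the mean and 6 of 1683 for the interaction. limma voom gave 2 of 948 for the mean and 0 of 905 for the interaction. edgeR with DESeq2's size factors gave 0 of 0 for the interaction, and with no filter on low counts 0 of 156. At least 10 counts in at least 8 libraries gave 2 of 809 for the mean, 0 of 775 for the interaction and 5 of 1345 between tissues at stages 56 and 58. The 8 libraries of stages 56, 58 and 61 alone gave 0 of 0 in each comparison. That fit had fewer libraries, and the part of this in the calls was not tested. Stage 56 alone gave 0 of 2 in coccyx, 10 of 3252 in hypochord, 7 of 2693 for the mean and 2 of 1571 for the interaction. Stage 58 alone, chosen after seeing the data, gave 15 of 3862 in hypochord, 14 of 2750 for the mean, 10 of 1698 for the interaction and 13 of 3137 between tissues. For the mean and for each tissue the replicate block was the replicate number. For the interaction and between tissues it was pairs of stage and number. The block gave 0 of 0 for the mean and the interaction and 1 of 182 between tissues. In hypochord at stage 61 it left 4 genes of the 51 called, with 1260 of all genes higher and 32 lower, against 1632 and 58 without it; in coccyx it gave 0 of 0. In the main fit the numbers were not taken to pair samples between stages (r = -0.08 in coccyx and -0.07 in hypochord). The cause of these moves was not tested.

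Leaving out each library in turn gave 1 to 15 genes of the 51 in hypochord at stage 61 (746 to 3474 of all), 0 to 13 for the mean (0 to 2615), 0 to 10 for the interaction (0 to 2125) and 2 to 14 between tissues (1363 to 4145). ENSXETG00000022249 turned to a log2 fold change of 0.26 with stage 58 alone and 0.28 without the stage 56 hypochord library; its lowest value with a library left out was -0.42. By total count, 3 counts were worth most in stage 65 hypochord (1.09 and 1.56 CPM) and 0.413 to 0.896 CPM in the other 10 libraries.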
